A study of Mus musculus with 12 samples.

Results

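The 10 genes described here carry the leptin and insulin signals from the cell surface to the nucleus and switch them off again: *Lepr*, *Insr*, *Irs1*, *Irs2*, *Jak2*, *Sh2b1*, *Stat3*, *Socs3*, *Ptpn1* and *Ptpn2*. They were chosen by name, as a signalling route, from the 38283 genes of the table. No measured value was a criterion, but earlier results of these data were known when they were chosen. All 10 had a mean level high enough to be among the 14017 genes tested. RNA was measured in the arcuate nucleus (ARC), the part of the hypothalamus at the base of the brain that reads hormonal signals of energy state. The mice were C57BL/6 males aged 8 weeks with free access to food, 5 of them wild-type (WT) and 7 homozygous (Homo) for the R299Q change in the γ2 subunit of AMP-activated protein kinase (AMPK), a cellular energy sensor. The change was knocked into the endogenous *Prkag2* gene and so was present in every tissue, not in the ARC alone. Each mouse gave 1 library, and the question was which ARC transcripts differ between the genotypes in fed animals.

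Leptin, released by adipose tissue, binds its receptor LEPR, which has no kinase of its own and relies on the bound kinase JAK2. JAK2 phosphorylates the receptor and the transcription factor STAT3, which enters the nucleus and switches on *Socs3*, whose product in turn blocks the receptor. Insulin binds INSR, itself a kinase, which passes its signal through the insulin receptor substrates to the PI3K-AKT pathway. The phosphatases PTP1B (gene *Ptpn1*) and TCPTP (gene *Ptpn2*) remove phosphate from the receptors and their partners. In the ARC, neurons expressing AGRP and NPY promote feeding and neurons expressing POMC reduce it, and both kinds are known to respond to these hormones.

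Levels are given in FPKM, in which fragments are scaled to transcript length and to the mapped fragments of the library. Levels of different genes can then be set beside each other, though only roughly. The RNA was amplified before sequencing, and what that did to the levels of single genes was not tested. The ARC markers were high in the 12 libraries: *Agrp* lay between 181 and 597 FPKM, *Npy* between 514 and 1795, and *Pomc* between 190 and 1350. *Nr5a1* and *Fezf1*, which mark the neighbouring ventromedial nucleus, did not exceed 0.315 and 0.647 FPKM, while *Sox14*, the third gene of that list, was above 0 in all 12 libraries at 0.199 to 3.85 FPKM. *Prkag2* itself averaged 14.6 ± 5.43 FPKM (SD, n = 5) in WT and 14.8 ± 4.88 FPKM (SD, n = 7) in Homo, and gene-level FPKM cannot show the altered codon. The libraries fell into 2 sets that neither the labels nor the paper names as a batch: 7 libraries (WT 1, WT 2 and Homo 1 to 5) listed 15742 to 16467 genes above 0, and 5 libraries (WT 3, WT 4, WT 5, Homo 6 and Homo 7) listed 18141 to 18635. Each genotype difference is accordingly shown for either set by itself as well. The tissue is a mixture of cells, so fewer cells of a type and less RNA per cell cannot be told apart.

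None of the 10 genes differed between WT and Homo beyond the spread between mice. With limma on log2(FPKM + 1) and Benjamini-Hochberg adjustment over all 14017 genes, 0 of the 10 had an adjusted p under 0.05, against 0.00713% of all genes tested (1 gene, *Jarid2*, listed at 0 in all 7 Homo libraries). At an unadjusted p under 0.05 the count was also 0, against 5.55% of all genes, and an exact permutation test of each gene by itself (792 arrangements) gave 0 of 10 as well. The FPKM of WT and Homo overlapped for each of the 10, whereas 0.221% of all genes had genotypes that did not overlap. Fold changes on the log2(FPKM + 1) scale, which understates changes of genes with low values, were negative for 6 members and positive for 4, and 49.3% of all genes were positive. Their median was -0.15, and that of all genes tested was -0.0062. A missed threshold does not show equal levels, and the 95% intervals give the size of change these libraries left possible. For 8 members the interval lay within a 2-fold change in either direction on that scale, while those of *Lepr* and *Socs3* reached beyond a 2-fold lower level in Homo. With a pseudocount of 0.1 in place of 1 the count was 6, with *Irs1* (-1.33 to 0.69) and *Irs2* (-1.03 to 0.35) also reaching beyond it, and the log2 fold changes of *Socs3* and *Irs1* were -0.53 and -0.32. Sums of marker lists were also set beside genotype, without a test. The summed FPKM of 5 microglial markers was 22.3 to 32.8 in WT and 25.7 to 46.9 in Homo. In Homo, 6 of 7 libraries lay above every WT library. *Aif1* had the largest difference in means among the 5, with 8.92 FPKM in WT and 17.3 in Homo. The sum of 5 endothelial markers was above every WT library in 5 of 7 Homo libraries. Of these markers *Tek* was lower in Homo on average (2.50 FPKM in WT and 0.648 in Homo). The WT mean of *Tek* was raised by WT 1 at 8.84 FPKM, and the medians were 0.954 in WT and 0.565 in Homo. In every other list at most 2 Homo libraries lay above every WT library. The tanycyte sum was 9.84 to 31.3 in WT and 9.31 to 19.3 in Homo. The part of these cell types in the differences given for members and pathway genes was not tested.

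**Figure D1:**
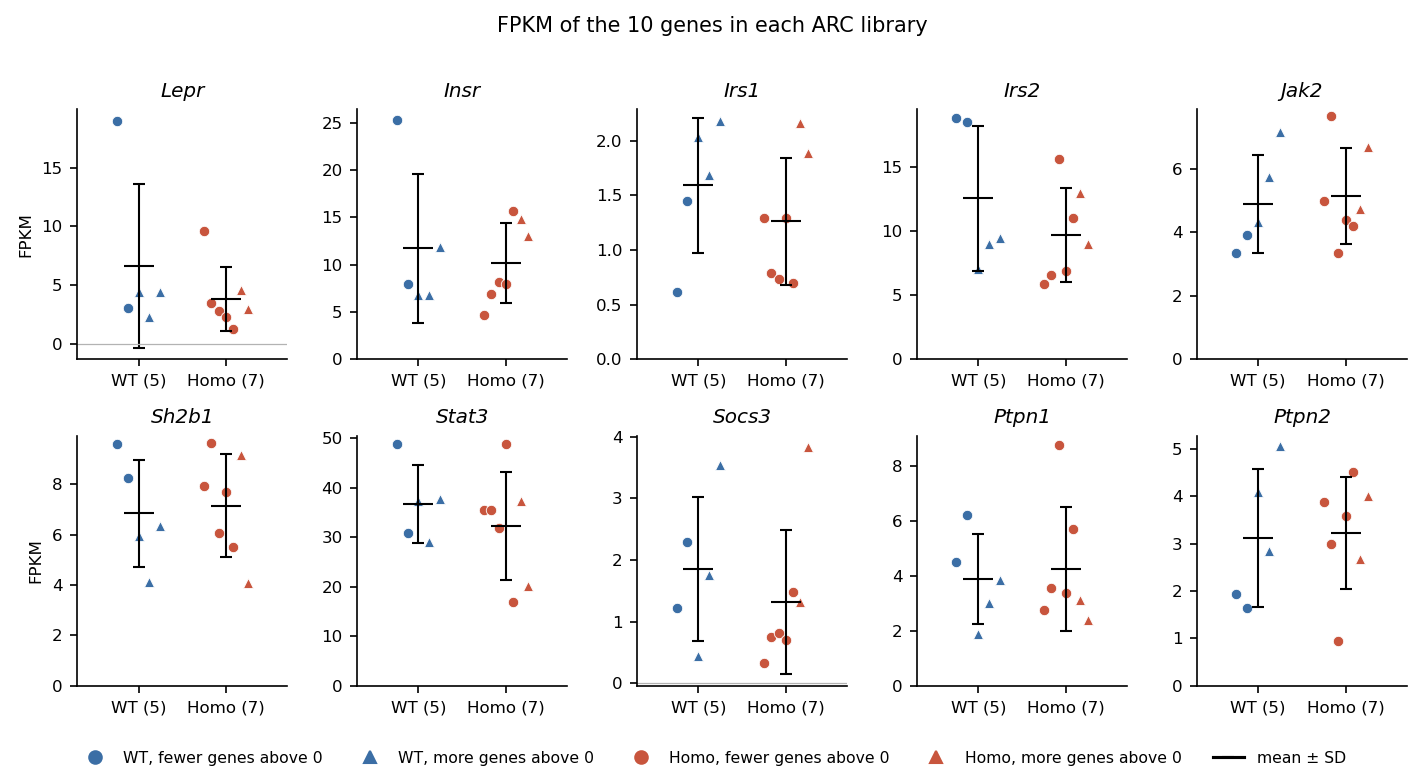
FPKM (vertical axes, from 0, scaled separately for each gene) of the 10 genes in 5 WT (blue) and 7 Homo (red) libraries; circles are libraries with fewer and triangles those with more genes above 0, and bars are the mean ± SD. WT and Homo overlap in each panel, and single libraries stand high for *Lepr* and *Insr* (WT 1 at 19.0 and 25.3 FPKM).

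*Lepr* (chr4:101717404-101815352 in GRCm38, plus strand) encodes the leptin receptor in all its splice forms, which a gene-level value does not separate. Its FPKM was 19.0, 3.05, 4.45, 2.28 and 4.42 in WT 1 to WT 5, and ranged in Homo from 1.24 to 9.59 with a median of 3.00. WT 1 stood far above the other WT libraries and Homo 1, at 9.59 FPKM, above the other Homo libraries, while the remaining libraries of both genotypes lay in the same range. The means were 6.64 ± 6.96 FPKM (SD, n = 5) in WT and 3.85 ± 2.73 FPKM (SD, n = 7) in Homo. The log2 fold change was -0.47 (95% interval -1.41 to 0.48, limma adjusted p = 0.923, exact permutation p = 0.383). Without WT 1 it was -0.034, while without Homo 1, the high Homo library, the fold change was larger and still negative. The estimate thus depended on single mice of either genotype. It was -1.10 among the libraries with fewer genes above 0, where both WT 1 and Homo 1 belong, and 0.043 among those with more. The residual SD of *Lepr*, 0.84 on the log2 scale, exceeded that of 81.3% of the genes tested.

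*Insr* (chr8:3122061-3279617, minus strand), the insulin receptor, was likewise highest in WT 1. WT 1 to WT 5 had 25.3, 7.90, 6.73, 6.81 and 11.8 FPKM, and the Homo libraries lay between 4.72 and 15.6 with a median of 8.16. Of the 7 Homo libraries, 6 fell within the WT range and Homo 1 fell under it. The log2 fold change of -0.11 (95% interval -0.85 to 0.64, limma adjusted p = 0.989) turned to 0.20 when WT 1 was left out. It was -0.75 among the libraries with fewer genes above 0 and 0.70 among those with more, with limma adjusted p of 0.934 and 0.885. *Insr* exceeded *Igf1r*, the receptor for insulin-like growth factor 1, in 12 of 12 libraries, with means of 10.8 and 3.71 FPKM.

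WT 1 was an extreme library for members other than the receptors too. WT 1 was the highest of the 12 libraries for *Lepr*, *Insr*, *Irs2* and *Stat3* and the lowest for *Irs1* and *Jak2*. Some of these were near-ties: *Irs2* was 18.8 FPKM against 18.5 in WT 2, and *Stat3* 48.9 against 48.8 in Homo 4. *Jak2* was 3.35 FPKM against 3.37 in Homo 3. Homo 1 was the lowest for *Insr*, *Irs2* and *Socs3*. How often either library was the extreme among all genes tested was not counted. In WT 1 the endothelial receptor *Tek* stood at 8.84 FPKM, against at most 1.96 in any other library, and the mural cell channel *Kcnj8* at 4.36. The summed FPKM of the 5 endothelial markers in WT 1 was 18.8, within the 16.9 to 20.6 of WT libraries and the 15.3 to 29.9 of Homo libraries, and its 4 mural cell markers summed to 23.3, within the 16.8 to 27.5 of Homo libraries. WT 1 had the highest sum of the 12 for 3 markers of oligodendrocyte precursors, 14.6 FPKM, against 14.2 in Homo 1. Of these 3, *Pdgfra* and *Gpr17* were highest in Homo libraries, at 5.19 and 9.47 FPKM. WT 1 had the lowest sum for 5 markers of astrocytes and 5 of microglia, 93.5 and 22.3 FPKM. It was the lowest library for no single gene of either list, and its *Aldh1l1*, an astrocyte marker, was 8.02 FPKM, exceeded only in Homo 1 (10.2 FPKM). The part of these cell types in the *Lepr* and *Insr* values was not tested.

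Among all genes tested, those whose log2(FPKM + 1) followed *Lepr* most closely over the 12 libraries were *Sct* (Pearson r = 0.92), *Gpr146* (r = 0.91) and *Traf4* (r = 0.91). Those closest to *Insr* were *Pdyn* (r = 0.91), *Atg12* (r = 0.90) and *Rmnd5a* (r = 0.90). Each of the 6 was highest in WT 1. Without WT 1 and Homo 1, r with *Lepr* was 0.54 for *Sct*, 0.86 for *Gpr146* and 0.64 for *Traf4*, and r with *Insr* lay between 0.81 and 0.84 for its 3 genes. These genes were picked for their likeness out of 14017, and their r is a description only.

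The receptor substrates showed a steep order. *Irs4*, which belongs to the same family and is known for its expression in the hypothalamus, averaged 91.9 FPKM, *Irs2* 10.9 and *Irs1* 1.40, and this order held in 12 of 12 libraries. *Irs4* did not pass the genotype test (log2 fold change -0.073 ± 0.19 SE, limma adjusted p = 0.985). *Irs2* (chr8:10984681-11008458, minus strand) had 18.8, 18.5, 7.05, 8.96 and 9.44 FPKM in WT 1 to WT 5, and between 5.85 and 15.6 FPKM with a median of 8.98 in Homo. WT 1 and WT 2 were the 2 highest of all libraries, and the other WT libraries sat among the Homo values. The log2 fold change was -0.31 (95% interval -0.95 to 0.32, limma adjusted p = 0.923). Among the libraries with fewer genes above 0, where WT 1 and WT 2 are the only WT samples, it was -1.04 with an unadjusted limma p of 0.0304 and an adjusted p of 0.815. Among those with more it was 0.32.

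*Irs1* (chr1:82233101-82291416, minus strand) was the lowest member together with *Socs3*. WT 1 to WT 5 had 0.620, 1.44, 2.03, 1.68 and 2.18 FPKM, and Homo ranged from 0.694 to 2.16 with a median of 1.29. The 7 Homo values all lay within the WT range, and the log2 fold change was -0.20 (95% interval -0.82 to 0.42, limma adjusted p = 0.950). It was the 1 member of 10 whose FPKM did not overlap between the 2 library sets, at 0.620 to 1.44 against 1.68 to 2.18, and 1.29% of all genes tested had sets that did not overlap in either direction. Within the sets the genotype difference was -0.035 and 0.031. Few marker genes separated the same sets. They were 1 of 8 arcuate genes (*Agrp*), 1 of 2 blood genes (*Hba-a1*) and 1 of 4 pituitary genes (*Gh*). No gene of any other marker list did so. *Agrp* was 347 to 597 FPKM in the set with fewer genes above 0 and 181 to 276 in the other. The paper reports *Agrp* as raised in the mutant mice, both by RNA sequencing and by in situ hybridization of the hypothalamus. Mutant libraries are unevenly spread over the sets here. In the set with fewer genes above 0, *Agrp* was 347 and 499 FPKM in WT and 466 to 597 in Homo. In the other set it was 181 to 272 FPKM in WT and 256 to 276 in Homo. *Npy* overlapped between the sets, at 1146 to 1795 and 514 to 1251 FPKM. The 2 blood markers summed to 0 to 16.7 and 17.2 to 110 FPKM. The sums of the 4 pituitary markers, 0 to 9.37 and 0.137 to 113 FPKM, overlapped. Of the pituitary genes, *Gh* was at 0 in the 7 libraries of the first set and above 0 in the 5 of the second, at 54.5 to 64.5 FPKM in WT 3, WT 5 and Homo 7, while *Prl* and *Tshb* were at 0 in the first set and in 3 libraries of the second. The part of these markers in the *Irs1* values was not tested. The sets were drawn from the number of genes above 0, and *Irs1* is a gene with few fragments, roughly 26 to 228 in a library as estimated from the steps between low values. *Irs1* also shares 2822 exonic bases with *Gm9747* on the opposite strand, which was given 0.196 to 2.28 FPKM, and the strand setting of the quantification is not given in the sources used here, so both values are uncertain.

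*Jak2* (chr19:29251828-29313080, plus strand), the kinase bound to LEPR, had the smallest residual SD of the 10 members. Its FPKM was 3.35, 3.91, 4.32, 5.75 and 7.17 in WT 1 to WT 5, and 3.37 to 7.67 with a median of 4.73 in Homo. The ranges nearly coincided, with a log2 fold change of 0.063 (95% interval -0.44 to 0.57, limma adjusted p = 0.990). That SD was 0.35 on the log2 scale, and 19.6% of the genes tested had a smaller one. *Jak1*, which serves many cytokine receptors, was higher than *Jak2* in 12 of 12 libraries (21.9 against 5.04 FPKM on average), and *Tyk2*, the remaining JAK of the list, was lower in 12 of 12 (0.467 FPKM).

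*Sh2b1* (chr7:126466994-126475424, minus strand) encodes an adaptor that binds JAK2 and the insulin receptor and enhances their signals. WT 1 to WT 5 had 9.60, 8.27, 5.94, 4.11 and 6.35 FPKM, and Homo ranged from 4.07 to 9.65 with a median of 7.72. Homo values spread over the whole WT range, and the log2 fold change was 0.058 (95% interval -0.47 to 0.58, limma adjusted p = 0.990). Its relative *Sh2b2* was lower in 12 of 12 libraries, at 1.82 FPKM on average.

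*Stat3* (chr11:100885098-100939540, minus strand), the transcription factor activated by LEPR and JAK2, was the most abundant member. WT 1 to WT 5 had 48.9, 30.8, 37.2, 28.9 and 37.7 FPKM, and Homo ranged from 16.9 to 48.8 with a median of 35.4. Homo 5 and Homo 7 lay under the lowest WT library and the other Homo libraries lay within the WT range. The log2 fold change was -0.23 (95% interval -0.77 to 0.30, limma adjusted p = 0.923), and it was the only member whose sign was negative in all 12 libraries together, in each library set and with each library left out. *Stat3* was above *Stat5b* and *Stat5a* in 12 of 12 libraries, with averages of 34.1, 7.01 and 2.70 FPKM. It shares 72 exonic bases with *Stat5a* on the opposite strand, a small part of its length.

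The inhibitors form the last group. *Socs3* (chr11:117966079-117970047, minus strand), the STAT3-induced feedback inhibitor of LEPR, had 1.22, 2.29, 0.438, 1.76 and 3.55 FPKM in WT 1 to WT 5, and ranged in Homo from 0.327 to 3.83 with a median of 0.819. Only 1 of the 7 Homo libraries, Homo 7, lay above the WT median, and it was the highest of all 12. The means were 1.85 ± 1.17 FPKM (SD, n = 5) in WT and 1.32 ± 1.18 FPKM (SD, n = 7) in Homo, with a log2 fold change of -0.32 (95% interval -1.11 to 0.48, limma adjusted p = 0.929, exact permutation p = 0.385). Within the sets it was -0.60 (fewer genes above 0) and 0.35 (more). These levels rest on few fragments, roughly 3.3 to 106 in a library with a median of 14. *Socs2* exceeded *Socs3* in 11 of 12 libraries, at 6.72 against 1.54 FPKM on average, and *Socs1* did so in 5 of 12.

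*Ptpn1* (chr2:167932057-167979385, plus strand), the phosphatase that acts on JAK2 and INSR, had 4.50, 6.21, 1.87, 3.01 and 3.85 FPKM in WT 1 to WT 5 and 2.39 to 8.75 FPKM with a median of 3.37 in Homo. *Ptpn2*, its closest relative, had 1.93, 1.64, 4.09, 2.85 and 5.07 FPKM in WT and 0.946 to 4.52 FPKM with a median of 3.57 in Homo. For each of the phosphatases, 6 of 7 Homo libraries lay within the WT range, and Homo 3 lay outside it, above for *Ptpn1* and below for *Ptpn2*. The log2 fold changes were 0.070 (95% interval -0.58 to 0.72, limma adjusted p = 0.990) and 0.043 (95% interval -0.60 to 0.69, limma adjusted p = 0.993). *Ptpn11*, a phosphatase that carries the LEPR signal towards ERK, was above *Ptpn1* in 12 of 12 libraries, at 21.4 against 4.09 FPKM on average.

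**Figure D2:**
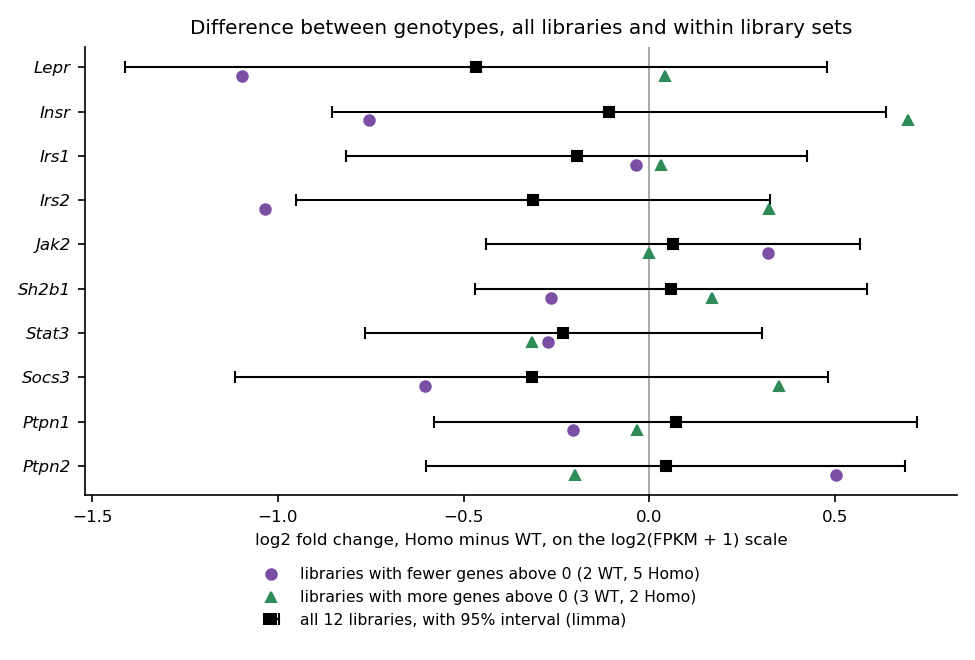
Log2 fold change, Homo minus WT, on the log2(FPKM + 1) scale (horizontal axis) for each of the 10 genes; squares are all 12 libraries with the 95% interval from limma, circles the libraries with fewer and triangles those with more genes above 0. Each interval spans 0, and for 8 of the 10 genes the circle and the triangle lie on opposite sides of 0. The share of all genes tested that do so was not counted.

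The sign of the difference was mostly not shared by the library sets. For 8 members the log2 fold change had opposite signs in the 2 sets, and only *Stat3* (-0.27 and -0.32) and *Ptpn1* (-0.21 and -0.033) had the same sign in both. The share of all genes tested with opposite signs was not counted, so the count of 8 cannot be called particular to the members. With all libraries together *Ptpn1* was positive, so the pooled sign was not the sign within either set. *Insr* and *Irs2* had the widest gaps, from -0.75 to 0.70 and from -1.04 to 0.32. An exact permutation within sets, over 210 arrangements, gave 0 of 10 members with p under 0.05, where the smallest p possible was 0.00476. The difference between the sets was itself not tested, and with 2 WT against 5 Homo libraries in one set and 3 against 2 in the other, the within-set values rest on few mice.

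The members spanned more than an order of magnitude, and much of their order was not resolved. By the mean of log2(FPKM + 1) over 12 libraries, the order was *Stat3*, *Irs2*, *Insr*, *Sh2b1*, *Jak2*, *Lepr*, *Ptpn1*, *Ptpn2*, *Socs3* and *Irs1*. Of the 9 neighbouring pairs, 2 differed in an exact sign-flip permutation test within libraries with adjustment over the 9. *Stat3* exceeded *Irs2* in 12 of 12 libraries by 1.60 ± 0.70 on the log2 scale (SD, exact p = 0.000488, adjusted p = 0.00439). *Ptpn2* exceeded *Socs3* in 11 of 12 by 0.77 ± 0.71 (SD, exact p = 0.00244, adjusted p = 0.0110). *Insr* over *Sh2b1* and *Sh2b1* over *Jak2* each held in 9 of 12 libraries and missed the threshold after adjustment (both adjusted p = 0.0934 in the exact test). The members therefore formed a top gene, a middle group from *Irs2* to *Ptpn2* whose neighbours were not separated, and *Socs3* with *Irs1* at the bottom.

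**Figure D3:**
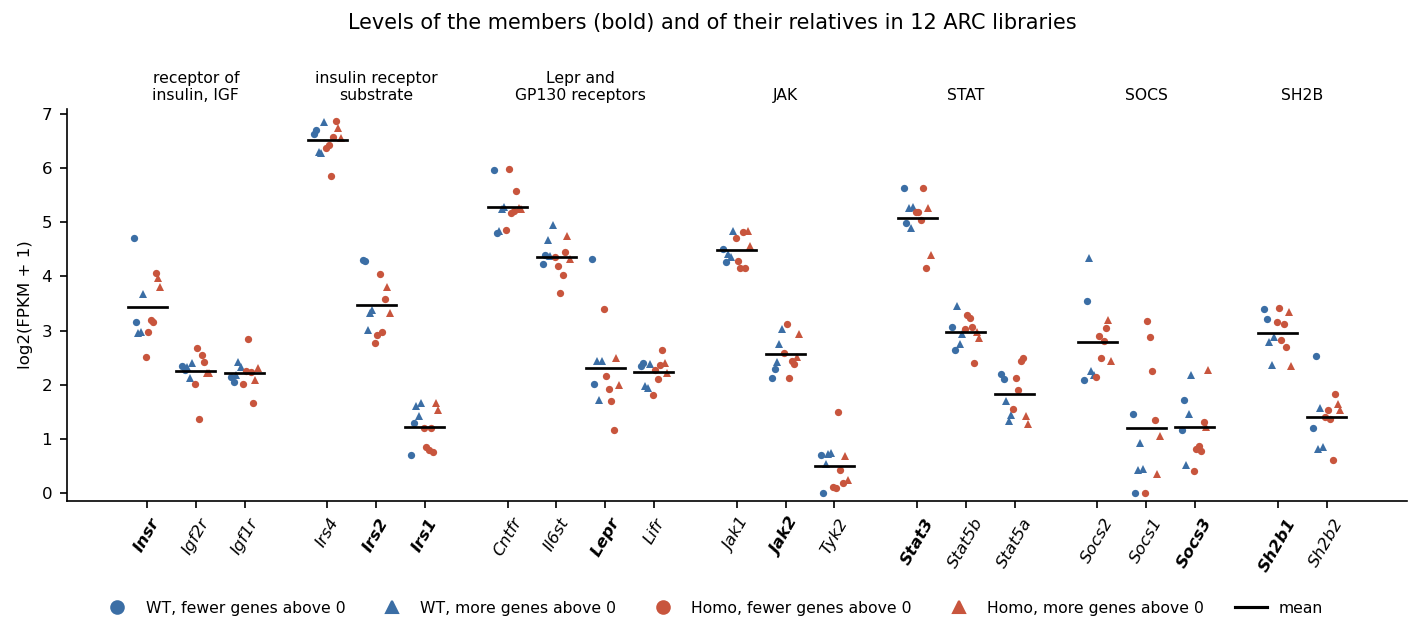
Log2(FPKM + 1) (vertical axis) of the members (bold) and of related genes, grouped by family, in 12 libraries; blue is WT, red is Homo, circles and triangles are the library sets, and black lines are means. *Irs4* lies above *Irs2* and *Irs1*, *Jak1* above *Jak2*, and *Stat3* above *Stat5b* and *Stat5a* in all 12 libraries.

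*Lepr* was not the most abundant gene among those of related receptor complexes. In complexes that signal through JAK and STAT3, *Cntfr*, a chain of the ciliary neurotrophic factor receptor, averaged 39.5 FPKM. *Il6st*, the shared GP130 chain, averaged 20.2, against 5.01 for *Lepr* and 3.77 for *Lifr*. *Lepr* was above *Lifr* in 5 of 12 libraries. These are levels of single chains and not of whole receptors. *Cntfr* was above *Lepr* in 12 of 12 libraries and *Il6st* in 11 of 12, the exception being WT 1. *Leprot*, an endosomal protein gene that lies 58.04 kb upstream of *Lepr* in GENCODE release 21 and takes part in receptor trafficking, was above *Lepr* in 9 of 12 libraries, at 6.71 FPKM on average. It was higher in Homo by 0.51 ± 0.28 (SE) on the log2 scale and did not pass the test (limma adjusted p = 0.905, exact permutation p = 0.0934).

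Whether the members varied together across mice was examined for all 45 pairs. None had a permutation p under 0.05 after adjustment over the 45, by Pearson (lowest adjusted p = 0.211) or Spearman (lowest 0.350), and 9 and 5 pairs had an unadjusted p under 0.05. *Irs2* and *Ptpn1* had r = 0.70 and rho = 0.66 (permutation p = 0.0115 and 0.0234, adjusted 0.211 and 0.350), with r = 0.68 without WT 1 and WT 2. *Lepr* and *Stat3* had r = 0.60 and rho = 0.59 (permutation p = 0.0430 and 0.0496, adjusted 0.225 and 0.376), with r = 0.57 without WT 1 and Homo 1. *Stat3* and its target *Socs3* had r = -0.42 and rho = -0.41 (permutation p = 0.168 and 0.195, adjusted 0.500 and 0.516), with r = -0.21 without Homo 5 and Homo 7. *Lepr* and *Insr*, both highest in WT 1, had r = 0.26 and rho = -0.049 (permutation p = 0.411 and 0.886, adjusted 0.787 and 0.929), and r = -0.13 without WT 1 and Homo 1. Centred within library sets, 0 of the 45 passed as well.

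A list of other genes of the same pathway held 66 genes with a value, 58 of which were tested. In limma 0 of the 58 had an adjusted p under 0.05. At an unadjusted p under 0.05, 2 were higher in Homo, against 3.05% of all genes, and 3 were lower, against 2.5% of all genes, with 27 positive and 31 negative in all and a median log2 fold change of -0.011. *Inpp5k*, an inositol phosphatase that opposes PI3K, averaged 5.82 ± 2.11 FPKM (SD, n = 5) in WT and 10.2 ± 3.73 (SD, n = 7) in Homo, a log2 fold change of 0.71 ± 0.27 (SE, limma adjusted p = 0.854, exact permutation p = 0.0290). Of the 7 Homo libraries, 5 lay above every WT library. *Map2k2*, which encodes the ERK kinase MEK2, differed by 0.56 ± 0.23 (SE, limma adjusted p = 0.891, exact permutation p = 0.0164).

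The 3 lower genes were *Grb10*, *Pik3r3* and *Pdpk1*. *Grb10*, an adaptor that restrains the insulin receptor, had 95.4 ± 23.6 FPKM (SD, n = 5) in WT and 68.0 ± 14.7 (SD, n = 7) in Homo (log2 fold change -0.48 ± 0.20 SE, limma adjusted p = 0.899, exact permutation p = 0.0379). *Pik3r3*, a regulatory subunit of PI3K, had a log2 fold change of -0.65 ± 0.30 (SE, limma adjusted p = 0.899, exact permutation p = 0.0707). *Pdpk1*, the kinase PDK1 that activates AKT, had -0.44 ± 0.20 (SE, limma adjusted p = 0.899, exact permutation p = 0.0316). These 3 genes and the 2 higher ones were picked by their p over the same 12 libraries. The exact tests and the signs within sets are therefore no separate evidence for them. Each of these 5 genes had the same sign in both library sets. The differences in the sets with fewer and with more genes above 0 were -0.74 and -0.36 for *Grb10*, -0.84 and -0.34 for *Pik3r3*, and -0.72 and -0.11 for *Pdpk1*. For *Inpp5k* they were 0.57 and 0.71, and for *Map2k2* 0.55 and 0.39. With the set as a covariate, 2 of the 5, *Grb10* and *Inpp5k*, kept an unadjusted limma p under 0.05.

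**Figure D4:**
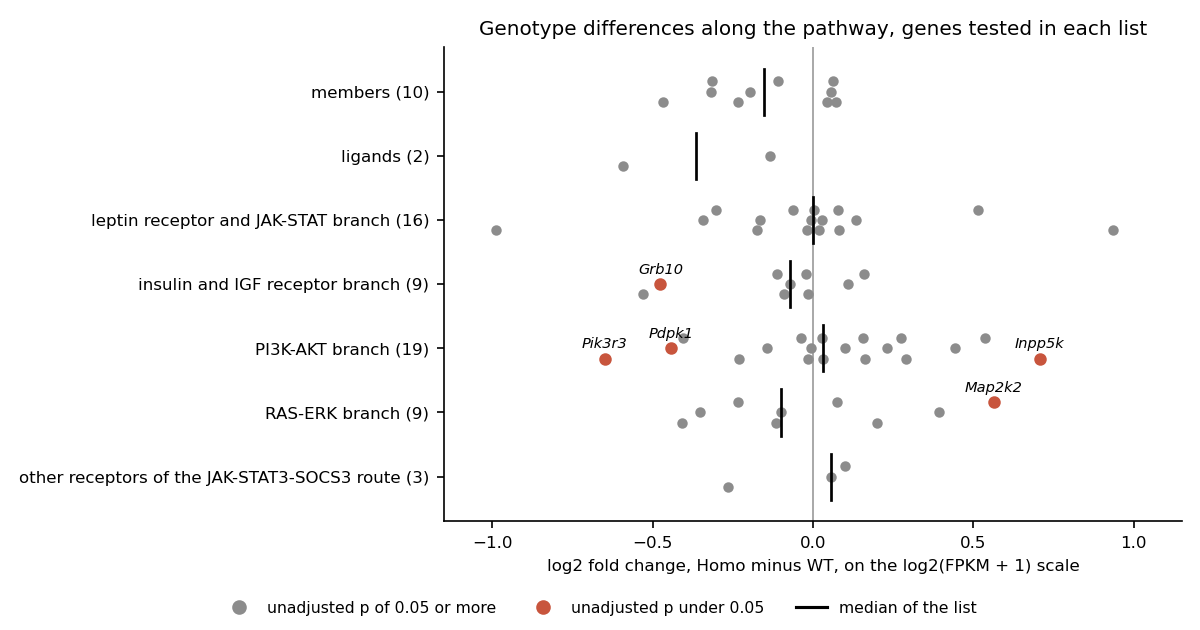
Log2 fold change, Homo minus WT, on the log2(FPKM + 1) scale (horizontal axis) for the 10 members and for the tested genes of each branch of the pathway; the vertical spread of points within a row has no meaning, black lines are medians, and red points have an unadjusted limma p under 0.05. The 5 red points are *Grb10*, *Pik3r3* and *Pdpk1* on the negative side and *Inpp5k* and *Map2k2* on the positive side, and none is a member.

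By branch, the tested genes of the leptin receptor and JAK-STAT branch were 8 positive and 8 negative, those of the insulin and IGF receptor branch 2 and 7, those of the PI3K-AKT branch 11 and 8, and those of the RAS-ERK branch 4 and 5. The most abundant gene of each was *Grb2* (24.9 FPKM on average), *Irs4*, *Gsk3b* (57.5) and *Mapk3* (120), none with an unadjusted limma p under 0.05. *Igf1r* (log2 fold change -0.021 ± 0.22 SE, limma adjusted p = 0.995) and *Il6st* (-0.27 ± 0.21 SE, limma adjusted p = 0.915) did not pass the test either. The hormone genes themselves were scarcely represented: *Lep* and *Ins1* were listed at 0 in 12 of 12 libraries and *Ins2* in 11 of 12, with 1.43 FPKM in Homo 4. *Igf1* ranged from 0.0754 to 9.43 FPKM and *Igf2* from 1.11 to 28.7 FPKM, with overlapping genotypes.

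The promoter sequences of the genes on the feedback and substrate steps are shown because their known regulators, STAT3 and E-box factors, bind short motifs. RefSeq promoters (GRCm38.p6, 300 bases around the start) covered 8 members with 10 promoters, and *Insr* and *Ptpn2* had no entry. The STAT motif TTCNNNGAA, which reads alike on both strands, was in 1 of the 10, that of *Socs3*, and in 8.30% of all 32851 promoters. The E-box CACGTG, also its own reverse complement, was in 2 of 10, those of *Irs1* and *Irs2*, and in 7.15% of all promoters. The forkhead motif GTAAACA, searched on both strands, was in 0 of 10 and in 3.65% of all. Each sequence runs 5′ to 3′ on the gene's strand with the motif in capitals, 154 bases before the start in *Socs3* (chr11:117969317-117969616, minus strand), 115 in *Irs1* (chr1:82291390-82291689, minus strand) and 44 in *Irs2* (chr8:11008880-11009179, minus strand).
Socs3: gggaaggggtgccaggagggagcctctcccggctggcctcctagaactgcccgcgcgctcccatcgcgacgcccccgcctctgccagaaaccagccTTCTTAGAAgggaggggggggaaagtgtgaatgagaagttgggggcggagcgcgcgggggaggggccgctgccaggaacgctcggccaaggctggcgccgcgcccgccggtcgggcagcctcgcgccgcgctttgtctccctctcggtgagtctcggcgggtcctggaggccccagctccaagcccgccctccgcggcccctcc
Irs1: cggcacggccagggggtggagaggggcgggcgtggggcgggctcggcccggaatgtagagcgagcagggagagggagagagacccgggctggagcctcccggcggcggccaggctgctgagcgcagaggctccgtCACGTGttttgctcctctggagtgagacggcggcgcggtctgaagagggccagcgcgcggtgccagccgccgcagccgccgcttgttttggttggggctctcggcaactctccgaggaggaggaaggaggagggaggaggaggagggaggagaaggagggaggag
Irs2: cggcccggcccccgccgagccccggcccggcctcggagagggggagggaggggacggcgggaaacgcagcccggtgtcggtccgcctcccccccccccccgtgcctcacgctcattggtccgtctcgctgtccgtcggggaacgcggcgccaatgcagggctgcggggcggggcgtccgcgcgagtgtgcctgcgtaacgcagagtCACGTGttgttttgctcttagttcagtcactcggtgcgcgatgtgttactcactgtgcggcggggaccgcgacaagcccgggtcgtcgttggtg
A match is a run of letters and not a shown binding site. Distances are to the start of the promoter entry, which need not be the gene end given above. The *Irs2* promoter lies wholly outside the *Irs2* gene as positioned from GENCODE, and the *Socs3* promoter lies wholly inside its gene. *Irs1* and *Irs2*, which both hold the E-box, averaged 1.40 and 10.9 FPKM.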

How the data were processed

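The authors isolated RNA from the laser-captured ARC (14 μm sections), amplified it with a whole-transcriptome kit and sequenced 12 libraries on an Illumina instrument. They deposited FPKM per gene and library. The submitters' processing notes name TopHat2 2.0.8, Cufflinks 2.2.1 and GRCm38, without roles; the annotation release and strand setting are not given in the sources used here. All 12 columns were matched to mice by label.

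FPKM are not counts, so log2(FPKM + 1) was tested with limma 3.58.1 in R 4.3.3 (trend, robust, genotype only) over the 14017 genes whose FPKM averaged 1 or more, and p-values were adjusted over all of them (Benjamini-Hochberg). Single genes, levels and correlations were tested by permutation (scipy 1.17.1 and numpy 2.4.6 under Python 3.11.15), and the limma script was tested on simulated data. Counts were not used; 1 fragment on 1 kb was worth roughly 0.0849 to 0.123 FPKM in the 5 libraries with more genes above 0 and 0.201 to 0.326 in the other 7, uncertain in Homo 2 and Homo 3. Library sets were drawn at the largest gap in genes above 0. Positions are from GENCODE release 21, in which 97.5% of tested identifiers were found; *Leprot*, planned as overlapping *Lepr*, does not overlap it there.

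Members and lists were chosen with earlier results of these data known. Named beyond the members were pathway genes with an unadjusted p under 0.05, each list's most abundant gene, the ligands, *Leprot*, *Igf1r*, *Il6st*, and the 3 genes most like *Lepr* and *Insr*. Relatives of the members, *Jarid2* and single marker genes were named after their values were seen. Alternatives covered the pseudocount, filters, scaling, weights, library sets, a replicate block and each library left out. Plots were drawn with matplotlib 3.10.9. The result for 1 pathway gene is not reported here.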

Additional observations from a re-analysis of the deposited data

Results flagged for a closer look

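A library was marked where its gap to the nearest other library of its genotype was large against the range of that genotype. Of 20 groups examined (10 genes in each genotype) 4 were marked, and chance gives about 1 in 20 for normally distributed values. The marks were set on FPKM without logs, and all 4 fell on the highest library of the group. The count therefore cannot be read against that rate. WT 1 was marked for *Lepr*, at 18.98 FPKM with a gap of 0.870 of the WT range, and for *Insr*, at 25.3 FPKM with a gap of 0.727. Homo 1 was marked for *Lepr* at 9.59 FPKM (0.597 of the Homo range), and Homo 7 for *Socs3* at 3.83 FPKM (0.670). Without WT 1 the *Lepr* log2 fold change was -0.034 and that of *Insr* 0.20. Without Homo 1 that of *Lepr* was -0.68, and without Homo 7 that of *Socs3* was -0.51.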

How the results depend on the processing

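In 236 alternative fits of the members' fold changes the adjusted limma p stayed above 0.05 in each (lowest 0.808), and the sign turned in 28, in none of them for *Stat3*. Among the libraries with more genes above 0 it turned for *Lepr* (0.043), *Insr* (0.70), *Irs1* (0.031), *Irs2* (0.32), *Jak2* (-0.0025), *Socs3* (0.35), *Ptpn1* (-0.033) and *Ptpn2* (-0.20), and among those with fewer for *Sh2b1* (-0.27) and *Ptpn1* (-0.21). With the library set as a covariate *Sh2b1* was -0.067 and *Ptpn1* -0.13, and with array weights *Insr* was 0.21. Leaving out each library gave *Insr* -0.24 to 0.20 (turned without WT 1 and without Homo 1), *Jak2* -0.038 to 0.19, *Sh2b1* -0.086 to 0.18, *Ptpn1* -0.10 to 0.23 and *Ptpn2* -0.098 to 0.22. A pseudocount of 0.1 gave *Socs3* -0.53 and *Irs1* -0.32, from -0.32 and -0.20. The cause was not tested.

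The count of members at an unadjusted p under 0.05, 0 in all libraries, was 1 (*Irs2*) among the libraries with fewer genes above 0. The 5 wider pathway genes at an unadjusted p under 0.05 became 3 without trend and robust variances, 2 with the set as a covariate, 1 among the libraries with more genes above 0 and between 2 and 5 with a library left out. WT 1, WT 5, Homo 2 or Homo 6 left out gave 3, and WT 2, WT 3 or WT 4 left out gave 2. The 2 resolved steps in the order of levels became 0 in WT alone, where the smallest exact p is 0.0625, and 0 in Homo alone. Same-numbered libraries of the genotypes did not deviate together (correlations -0.054 to 0.029). Numbers 3, 4 and 5 join libraries of different sets, and deviations were not centred within sets, so these correlations cannot exclude paired mice. With a replicate block 0 members and 5 wider pathway genes passed the adjusted and unadjusted thresholds respectively. A mean FPKM of at least 5 left *Irs1*, *Socs3*, *Ptpn1* and *Ptpn2* without a value. Few fragments limit *Socs3*, *Irs1* and *Ptpn2*.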
